A study of Mus musculus with 31 samples.

Results

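Serpins are a family of proteins named for the serine protease inhibitors among them. In mouse liver arrays, 54 of the 22180 measured genes had a symbol beginning with Serpin, and these 54 were taken as the family. A gene counted as measured where a probe set of the array was annotated to 1 symbol alone. Serpinb9b alone among the Serpin genes had more than 1 such probe set, and the brighter of them over the 31 arrays was used. The letter after Serpin gives the clade. Clade A held 20 genes, clade B held 25, clades F and I held 2 each, and clades C, D, E, G and H held 1 each. Serpina4-ps1, a clade A member, is annotated as a pseudogene and was kept. In the RefSeq gene table of GRCm38.p6, 19 of the 54 genes lay on chromosome 12, 15 on chromosome 13 and 11 on chromosome 1.

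An inhibitory serpin holds out a flexible loop that its target protease attacks like a substrate. The broken loop then inserts into the body of the serpin and traps the protease in a dead covalent complex, so that each molecule works a single time. Hepatocytes secrete most of the serpins in blood plasma, among them antithrombin and alpha-1-antitrypsin, while clade B serpins mostly stay inside cells. Some family members have given up inhibition and carry hormones (thyroxine-binding globulin and corticosteroid-binding globulin) or chaperone collagen.

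All livers came from male C57BL/6 mice aged 3 to 4 months, were taken in the morning, and gave 1 array per mouse. Fed-Fed-Fast mice (8 arrays) had been fed freely for the whole study and were killed after a 16 h fast, and Fed-Fed-Fed mice (8 arrays) had the same feeding and were killed in the fed state. Fast-Fast-Fast mice (7 arrays) had been through 2 fasts of 16 h over 8 weeks, had regained their growth after each, and were killed after a further 16 h fast. Fast-Fast-Fed mice (8 arrays) had the same 2 earlier fasts and were killed fed.

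Values are log2 signals, and a change of 1 on this scale is a doubling or halving. They ran from -0.0139 to 13.1 over all probe sets, with array medians of 2.01 to 2.07 and Pearson's r between arrays of 0.965 to 0.982. The median gene had a mean level of 2.26. Hepatocyte markers were at the top of the scale in every group: Alb, serum albumin, ranged from 12.92 to 13.02 in Fed-Fed-Fast livers and from 12.99 to 13.07 in Fed-Fed-Fed livers. In bulk liver, fewer cells of a type and less RNA per cell cannot be told apart. Each probe set has its own response, so a place on this scale and a sum over several genes describe signals of the array and not amounts of RNA.

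The first question is what a 16 h fast does to the family. Calls were made in limma over all 22180 genes, at a threshold of 0.05 on the p-value after Benjamini-Hochberg adjustment. In mice with 0 earlier fasts (Fed-Fed-Fast against Fed-Fed-Fed), 3 Serpin genes were called higher and 9 lower, and 42 were not called. Over all genes, 6.25% were called higher and 6.23% lower. In mice with 2 earlier fasts (Fast-Fast-Fast against Fast-Fast-Fed), 3 Serpin genes were called higher and 8 lower, against 6.06% and 5.52% of all genes. These all-gene shares are the background for each count of a clade or gene list below. The family's median log2 change was -0.01 and -0.02 in these responses, with medians of -0.0036 and -0.0004 over all genes. The median size of the change, whatever its sign, was 0.11 and 0.12 in the family and 0.10 and 0.10 over all genes. So over all 54 genes the middle of the family moved as little as the middle of all genes, and the calls lay in its tail. The 23 Serpin genes with a mean above that of the median gene differed from this. Their median log2 change was -0.14 and -0.14, against -0.0085 and 0.0081 over all 11090 genes above that level. The median size of their change was 0.24 and 0.26, against 0.15 and 0.16. Of the 23, 3 were called higher and 8 lower in each response. Of the 11090, 1312 and 1328 were with 0 earlier fasts, and 1293 and 1168 with 2.

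**Figure D1:**
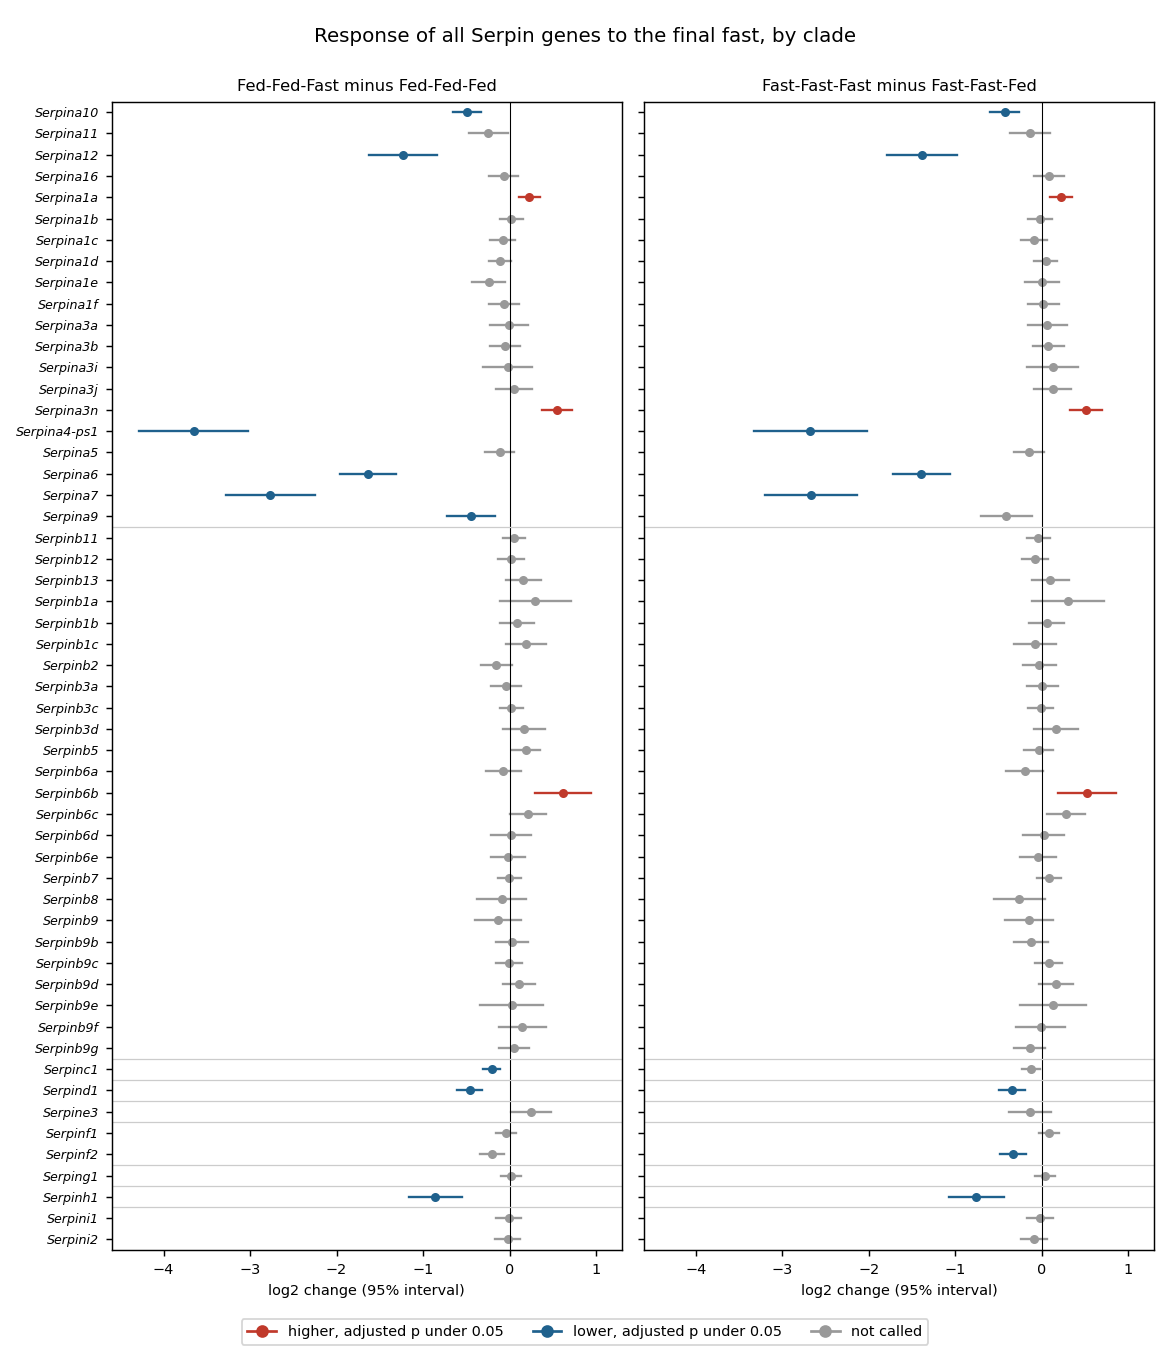
Log2 change of all 54 Serpin genes in the response to the final fast, with 0 earlier fasts in the left panel and 2 in the right, ordered by clade. Points are changes with 95% intervals, coloured by call. Serpina4-ps1, Serpina7, Serpina6 and Serpina12 lie farthest to the left in both panels, and the clade B genes crowd around 0.

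By clade, most calls were in clade A. It had 2 genes higher and 6 lower in mice with 0 earlier fasts, and 2 higher and 5 lower in mice with 2. Clade B had 1 higher and 0 lower in each response. Both responses rest on separate animals, and 10 Serpin genes were called in both, each in the same direction. These 10 are 83.3% of those called with 0 earlier fasts and 90.9% of those called with 2. Over all genes the shared calls were 66.1% and 71.3%. Of the 54, 23 had a mean above that of the median gene, and 12 of the 13 genes called in either response were among them. The exception was Serpina9. Over all genes, 1312 of the 1387 called higher and 1328 of the 1381 called lower with 0 earlier fasts had such a mean, and 1293 of 1344 and 1168 of 1225 with 2.

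**Figure D2:**
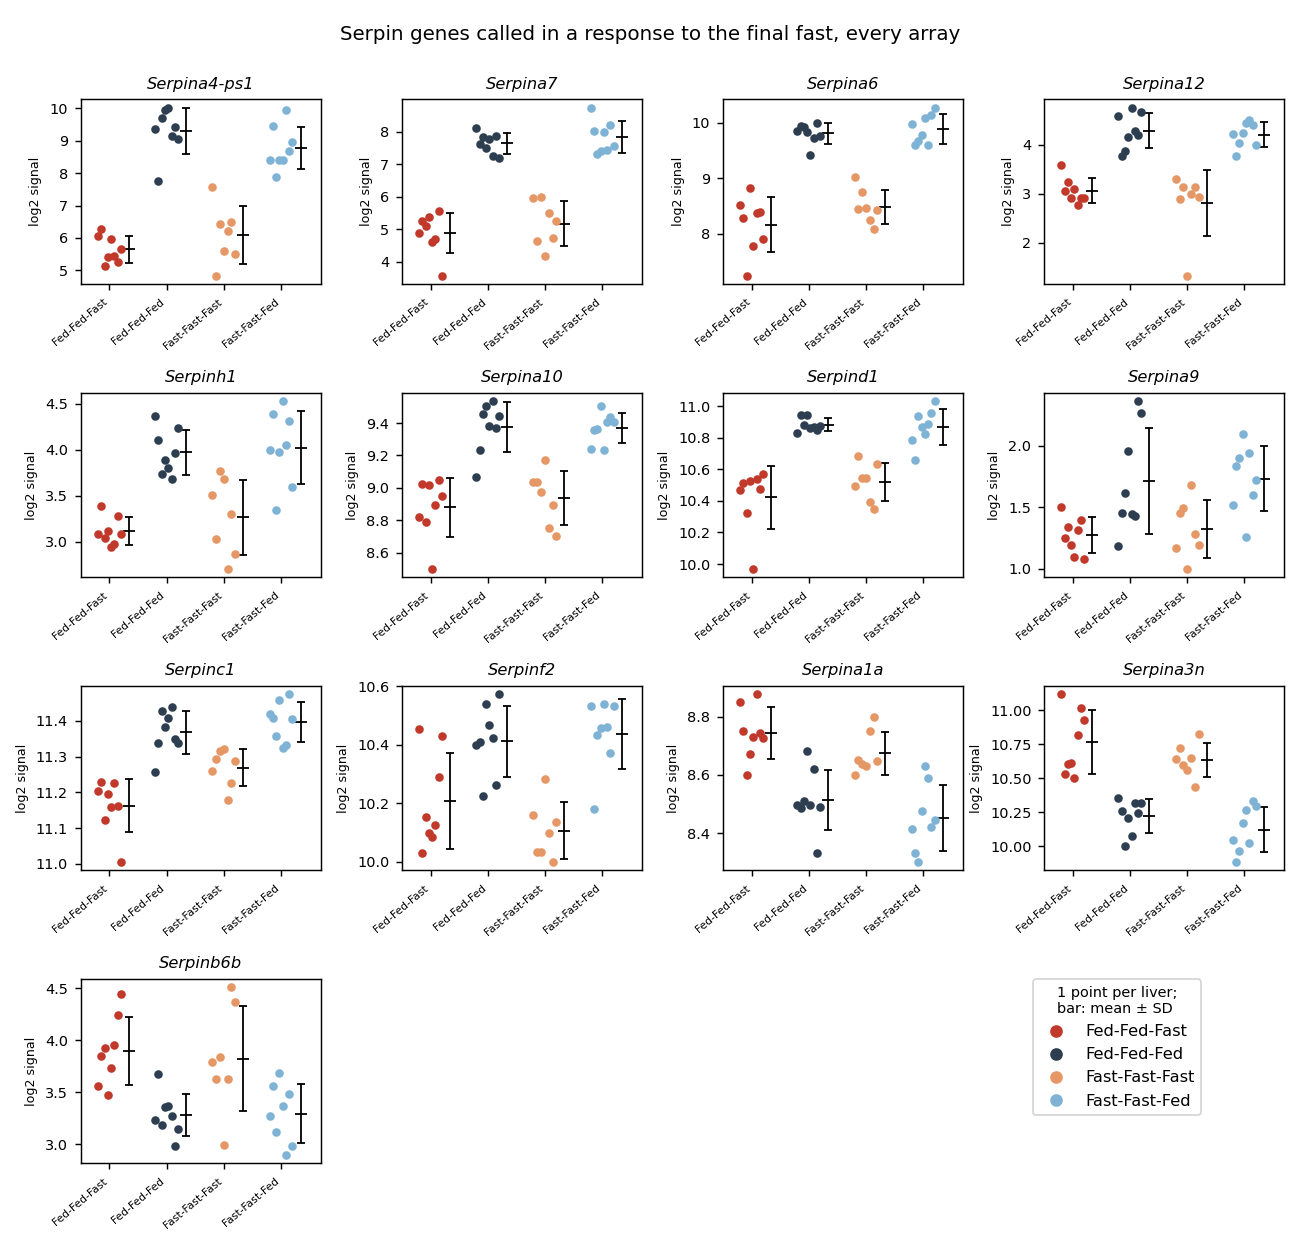
Log2 signal on every array for the 13 Serpin genes called in either response, 1 point per liver, with mean and SD beside each group. Fed-Fed-Fast stands left of Fed-Fed-Fed and Fast-Fast-Fast left of Fast-Fast-Fed. The fasted and fed points of Serpina7, Serpina6 and Serpina4-ps1 do not meet in either history.

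The hormone carriers of the family fell. Serpina7 encodes thyroxine-binding globulin, a plasma carrier of thyroid hormone that does not inhibit proteases. It had a lowest, median and highest signal of 3.56, 5.00 and 5.56 in Fed-Fed-Fast livers, against 7.18, 7.69 and 8.12 in Fed-Fed-Fed livers. It had 4.16, 5.27 and 5.98 in Fast-Fast-Fast livers, against 7.32, 7.78 and 8.74 in Fast-Fast-Fed livers. Every fasted liver lay below every fed liver in both histories. This amounted to a log2 change of -2.77 (SE 0.25, limma adjusted p = 2.71e-10), or 6.80-fold lower, with 0 earlier fasts. With 2 earlier fasts it was -2.67 (SE 0.26, limma adjusted p = 1.7e-09), or 6.36-fold lower.

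The 250 bases before the listed start of Serpina7 are shown because it is the protein-coding member with the largest fall. They lie at chrX:139085237-139085486 of GRCm38.p6 on the minus strand, read from RefSeq's promoter table. Capitals mark, from left to right, GGTTAAT (a core of the motif of HNF1, a liver transcription factor), the C/EBP letters TTGCNNAA on the opposite strand, and the TATA box (TATAAA). They stand 58, 30 and 10 bases before the start.
Serpina7: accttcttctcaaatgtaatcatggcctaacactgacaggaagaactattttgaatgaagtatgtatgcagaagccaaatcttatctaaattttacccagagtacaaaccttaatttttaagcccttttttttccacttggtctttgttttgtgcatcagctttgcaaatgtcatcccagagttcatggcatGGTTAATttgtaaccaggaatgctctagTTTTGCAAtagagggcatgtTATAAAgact
Of the family's 47 promoters in the table, 7 held GGTTAAT on either strand, 11 the C/EBP letters and 10 the TATA box. Among all 27025 promoter windows of the same length, the shares were 1.66%, 9.55% and 13%. Of the 7 with GGTTAAT, 5 are the near-identical Serpina1a to Serpina1e, and the others are Serpina7 and Serpinb8, so the 7 are not separate cases. The whole HNF1 palindrome stood in 0 Serpin promoters (0.0074% of all), and the STAT letters TTCNNNGAA stood in 5 (7.18% of all). The HNF1 core was searched after the sequences had been read. A match describes letters in this window and is neither a binding site nor a cause.

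Serpina6 encodes corticosteroid-binding globulin, the plasma carrier of glucocorticoids and likewise no inhibitor. In order of lowest, median and highest, the signals were 7.25, 8.33 and 8.83 in Fed-Fed-Fast livers, against 9.41, 9.84 and 10.0005 in Fed-Fed-Fed livers. They were 8.09, 8.44 and 9.02 in Fast-Fast-Fast livers, against 9.59, 9.87 and 10.26 in Fast-Fast-Fed livers. The groups again did not overlap. Serpina6 fell by 1.64 on the log2 scale (SE 0.16, limma adjusted p = 8.22e-10), 3.11-fold, with 0 earlier fasts. It fell by 1.39 (SE 0.16, limma adjusted p = 6.4e-08), 2.63-fold, with 2.

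Of 7 measured carriers of hormones and vitamins outside the family, 4 rose and 1 fell with 0 earlier fasts, and 4 rose and 0 fell with 2. Igfbp1, a binding protein of insulin-like growth factors, had a log2 change of 2.97 (SE 0.36, limma adjusted p = 1.51e-07) and 2.93 (SE 0.38, limma adjusted p = 4.69e-07). Igfbp2 changed by 0.83 and 0.65 and Igfbp4 by 0.43 and 0.31. Ttr, transthyretin, which also carries thyroxine, fell by 0.22 with 0 earlier fasts (SE 0.049, limma adjusted p = 0.00115) and had a log2 change of -0.08 with 2 (adjusted p = 0.414). The median over the 7 was 0.31 and 0.25, against the all-gene medians above.

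The largest fall in the family belonged to the pseudogene Serpina4-ps1. Signals, as lowest, median and highest, were 5.14, 5.54 and 6.27 in Fed-Fed-Fast livers, against 7.77, 9.38 and 10.003 in Fed-Fed-Fed livers. They were 4.83, 6.22 and 7.58 in Fast-Fast-Fast livers, against 7.89, 8.55 and 9.94 in Fast-Fast-Fed livers. No fasted liver reached the level of the lowest fed liver. On the log2 scale the change was -3.65 (SE 0.31, limma adjusted p = 5.78e-11), or 12.6-fold lower, with 0 earlier fasts, and -2.68 (SE 0.32, limma adjusted p = 1.18e-07), or 6.40-fold lower, with 2.

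Serpina12, known as vaspin, an adipokine that inhibits kallikrein 7, fell as well. Lowest, median and highest signals were 2.77, 2.99 and 3.58 in Fed-Fed-Fast livers, against 3.77, 4.25 and 4.76 in Fed-Fed-Fed livers. They were 1.32, 2.99 and 3.30 in Fast-Fast-Fast livers, against 3.77, 4.23 and 4.52 in Fast-Fast-Fed livers. The groups did not overlap, and 1 Fast-Fast-Fast liver at 1.32 lay far below the other 6. The log2 change was -1.23 (SE 0.19, limma adjusted p = 1.05e-05), or 2.35-fold lower, and -1.39 (SE 0.20, limma adjusted p = 2.88e-06), or 2.62-fold lower. Of 4 measured adipocyte markers, 0 were called in either response. Their summed linear signal was 12.5 to 35.1 in Fed-Fed-Fast livers and 11.6 to 13.7 in Fed-Fed-Fed livers. It was 11.6 to 13.9 in Fast-Fast-Fast livers and 12.3 to 15.9 in Fast-Fast-Fed livers. With signals this weak, 0 calls say little about adipocytes in these livers.

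The 250 bases before the start of Serpina12, at chr12:104044444-104044693 on the minus strand of GRCm38.p6, are given for comparison with Serpina7. Capitals mark the single motif match, the C/EBP letters TTGCNNAA, 90 bases before the start.
Serpina12: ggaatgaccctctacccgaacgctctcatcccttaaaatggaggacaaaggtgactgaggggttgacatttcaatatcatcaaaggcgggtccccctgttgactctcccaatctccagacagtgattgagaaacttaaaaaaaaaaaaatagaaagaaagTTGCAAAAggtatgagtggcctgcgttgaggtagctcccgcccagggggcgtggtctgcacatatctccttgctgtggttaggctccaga
Serpina7 and Serpina12 thus shared the C/EBP letters on opposite strands and at different distances. Neither held the FoxO letters GTAAACA, the HNF4 letters CAAAGTCCA or the SREBP letters TCACNCCAC on either strand, nor did any other of the 47 Serpin promoters. Those motifs stood in 3.09%, 0.381% and 1.04% of all promoter windows. Serpina4-ps1, Serpina6 and Serpina10 had no promoter in the RefSeq table, so their promoters were not searched for any motif.

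Serpina9, which in humans is expressed in germinal centre B cells, lies next to Serpina12. Its lowest, median and highest signals were 1.08, 1.28 and 1.502 in Fed-Fed-Fast livers, against 1.18, 1.54 and 2.37 in Fed-Fed-Fed livers. They were 1.00, 1.28 and 1.68 in Fast-Fast-Fast livers, against 1.26, 1.78 and 2.10 in Fast-Fast-Fed livers, all groups below or near the level of the median gene and overlapping. This amounted to a log2 change of -0.45 (SE 0.14, limma adjusted p = 0.0275) with 0 earlier fasts and -0.41 (SE 0.14, limma adjusted p = 0.0584, not called) with 2. The call was lost with only the 2 groups compared in the fit (adjusted p = 0.0539) and without Fed-Fed-Fast replicate 5 or 8 or Fed-Fed-Fed replicate 4, 7 or 8 (adjusted p of up to 0.0802). Of 5 lymphocyte markers, 0 were called in either response. Their summed linear signal was 16.3 to 22.9 in Fed-Fed-Fast livers and 18.7 to 26.5 in Fed-Fed-Fed livers. It was 16.1 to 22.3 in Fast-Fast-Fast livers and 17.7 to 25.7 in Fast-Fast-Fed livers. With signals this weak, 0 calls say little about lymphocytes in these livers.

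Serpina9, Serpina12 and Serpina4-ps1 stand in this order, with no other Serpina gene between them, in the gene cluster of chromosome 12. The RefSeq table places 19 measured Serpin genes there, from Serpina10 at the start of the block to Serpina3n at its end. The adjoining Serpina11 and Serpina5 were not called. Serpina11 had a log2 change of -0.25 with 0 earlier fasts (adjusted p = 0.171) and -0.14 with 2 (adjusted p = 0.557). At the start of the block, Serpina10 and Serpina6 fell, and the next gene, Serpina16, was not called. Genes that rose and genes that fell thus shared this cluster.

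**Figure D3:**
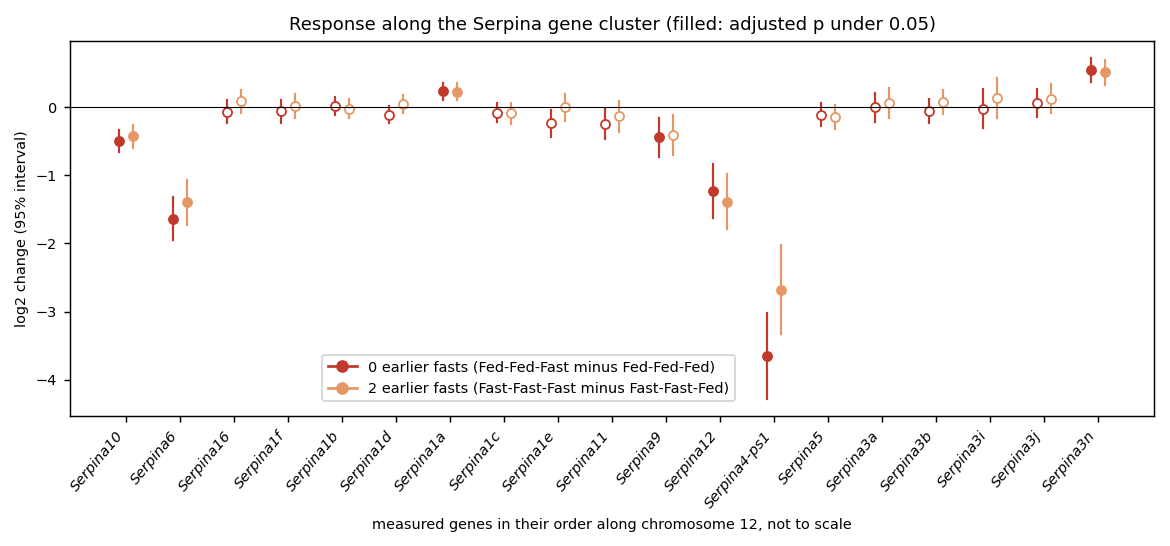
Log2 change with 95% interval of the 19 measured Serpina genes of chromosome 12, in the order of the RefSeq gene table and not to scale, for mice with 0 and with 2 earlier fasts. Filled points were called at an adjusted p under 0.05. Falls stand at Serpina10 and Serpina6 and again from Serpina9 to Serpina4-ps1, with Serpina1a higher between them and Serpina3n higher at the far end.

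The 2 secreted inhibitors that rose were Serpina3n and Serpina1a. Serpina3n belongs to the mouse relatives of human alpha-1-antichymotrypsin, an acute phase protein. In order of lowest, median and highest, the signals were 10.50, 10.71 and 11.12 in Fed-Fed-Fast livers, against 9.999, 10.25 and 10.35 in Fed-Fed-Fed livers. They were 10.43, 10.64 and 10.82 in Fast-Fast-Fast livers, against 9.88, 10.11 and 10.33 in Fast-Fast-Fed livers. Every fasted liver lay above every fed liver of the same history. On the log2 scale the change was 0.55 (SE 0.087, limma adjusted p = 1.5e-05), or 1.46-fold higher, and 0.51 (SE 0.090, limma adjusted p = 8.65e-05), or 1.42-fold higher. The 4 other measured Serpina3 genes (Serpina3a, Serpina3b, Serpina3i and Serpina3j) had mean levels of 1.25 to 1.89, below the median gene, and 0 were called. The protein-coding genes Serpina3c, Serpina3f, Serpina3g, Serpina3k and Serpina3m of the same cluster were not among the measured genes. Whether they changed is therefore not known here. Probes that could pair with more than 1 Serpina3 gene were not checked, so the change of Serpina3n alone is uncertain.

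Serpina3n was the only Serpin promoter of the 47 to hold the palindromic letters of a glucocorticoid receptor element, searched on both strands, which 0.381% of all promoter windows held. The match, in capitals, stands 78 bases before the start in the window at chr12:104406458-104406707, on the plus strand of GRCm38.p6.
Serpina3n: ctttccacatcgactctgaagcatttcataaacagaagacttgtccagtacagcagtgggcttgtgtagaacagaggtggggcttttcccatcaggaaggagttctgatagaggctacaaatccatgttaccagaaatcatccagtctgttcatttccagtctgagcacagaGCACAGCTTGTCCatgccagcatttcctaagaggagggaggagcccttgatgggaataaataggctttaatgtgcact
Nr3c1, the glucocorticoid receptor gene, fell by 0.34 with 0 earlier fasts (limma adjusted p = 0.0033) and by 0.42 with 2 (limma adjusted p = 0.000443). Among 10 measured regulators of liver plasma protein genes, 4 rose and 2 fell in each response. Cebpb and Cebpd, transcription factors of the acute phase, had log2 changes of 1.11 and 1.03 with 0 earlier fasts and 0.61 and 0.38 with 2. Il6ra, a chain of the interleukin-6 receptor, changed by 0.81 and 0.63 and Hnf4a by 0.36 and 0.30, while Cebpa fell by 0.28 and 0.50. Stat3, Il6st, Socs3 and Foxa2 were not called. The neutrophil and monocyte list had 1 of 6 markers called in each response, Lcn2, which hepatocytes also make, with log2 changes of 1.15 and 1.24. The other markers changed by -0.24 (Ly6g) to 0.09 (S100a9) with 0 earlier fasts and by -0.13 (Ly6g) to 0.13 (Csf3r) with 2. The summed linear signal of this list was 47.3 to 110 in Fed-Fed-Fast livers and 36.1 to 49.0 in Fed-Fed-Fed livers. It was 50.3 to 135 in Fast-Fast-Fast livers and 32.0 to 47.3 in Fast-Fast-Fed livers. The higher sums after the final fast rest on Lcn2, since no other marker of the list rose by more than 0.13. The part of neutrophils and monocytes in the change of Serpina3n was not tested.

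Alpha-1-antitrypsin, the chief plasma inhibitor of neutrophil elastase, comes from several near-identical genes in the mouse. Serpina1a had lowest, median and highest signals of 8.60, 8.74 and 8.88 in Fed-Fed-Fast livers, against 8.33, 8.50 and 8.68 in Fed-Fed-Fed livers. It had 8.60, 8.65 and 8.80 in Fast-Fast-Fast livers, against 8.30, 8.43 and 8.63 in Fast-Fast-Fed livers. The groups overlapped at their edges. The log2 change was 0.23 (SE 0.059, limma adjusted p = 0.00589) and 0.22 (SE 0.061, limma adjusted p = 0.0114), both 1.17-fold. The 4 closest copies were not called: the log2 changes were 0.02 and -0.02 for Serpina1b, -0.08 and -0.09 for Serpina1c, -0.11 and 0.04 for Serpina1d, and -0.24 and -0.001 for Serpina1e. Whether Serpina1a differed from these copies was not tested, and probes that could pair with more than 1 copy were not checked here, so the change of a single copy is uncertain. Mean levels over all arrays were 12.3 for Serpina1c, 12.1 for Serpina1d and 10.99 for Serpina1e, near the top of the scale. Serpina1b had a mean level of 3.34, so its log2 changes come from a far weaker signal than those of the other copies.

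The likeness of the copies is visible in their promoters. The 150 bases before the starts of Serpina1a (chr12:103863620-103863769), Serpina1c (chr12:103904951-103905100), Serpina1d (chr12:103773634-103773783) and Serpina1e (chr12:103956898-103957047), all on the minus strand of GRCm38.p6, read as follows, with GGTTAAT and TTGCNNAA in capitals.
Serpina1a: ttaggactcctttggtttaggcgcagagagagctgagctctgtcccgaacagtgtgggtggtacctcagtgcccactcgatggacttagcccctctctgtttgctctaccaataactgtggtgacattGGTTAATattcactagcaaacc
Serpina1c: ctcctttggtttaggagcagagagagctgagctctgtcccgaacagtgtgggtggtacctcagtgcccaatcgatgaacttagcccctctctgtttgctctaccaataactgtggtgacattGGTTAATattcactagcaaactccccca
Serpina1d: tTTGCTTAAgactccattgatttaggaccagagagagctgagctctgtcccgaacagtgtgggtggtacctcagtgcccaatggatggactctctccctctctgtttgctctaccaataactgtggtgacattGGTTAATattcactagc
Serpina1e: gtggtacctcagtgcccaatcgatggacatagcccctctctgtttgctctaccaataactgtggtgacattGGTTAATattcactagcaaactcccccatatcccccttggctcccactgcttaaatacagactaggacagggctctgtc
GGTTAAT stood in the same run of bases in all 4, at 22, 28, 17 and 79 bases before the listed start. Over the aligned columns of the 250-base windows, Serpina1a was 95.5% identical to Serpina1c, 92.7% to Serpina1d and 95.3% to Serpina1e. Serpina1b, whose window is not shown, was 91.4% identical to Serpina1a. The C/EBP letters stood in the windows of Serpina1b, Serpina1d and Serpina1e and not in those of Serpina1a and Serpina1c.

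With 0 earlier fasts, 3 inhibitors of blood clotting fell (Serpina10, Serpind1 and Serpinc1), and with 2, the call held for Serpina10 and Serpind1. Serpina5, the protein C inhibitor, had a mean level of 1.34, below the median gene, and was not called. Serpina10 encodes the protein Z-dependent protease inhibitor, which blocks activated factors X and XI. Signals, as lowest, median and highest, were 8.50, 8.92 and 9.05 in Fed-Fed-Fast livers, against 9.07, 9.41 and 9.54 in Fed-Fed-Fed livers. They were 8.70, 8.97 and 9.17 in Fast-Fast-Fast livers, against 9.24, 9.39 and 9.50 in Fast-Fast-Fed livers. The groups did not overlap. This amounted to a log2 change of -0.49 (SE 0.080, limma adjusted p = 1.83e-05), or 1.41-fold lower, and -0.43 (SE 0.082, limma adjusted p = 0.000264), or 1.35-fold lower.

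The cofactor and both targets of that inhibitor fell too. Proz, protein Z, had a log2 change of -0.56 (SE 0.074, limma adjusted p = 6.64e-07) with 0 earlier fasts and -0.69 (SE 0.077, limma adjusted p = 2.61e-08) with 2. F11, coagulation factor XI, changed by -1.23 (SE 0.14, limma adjusted p = 1.57e-08) and -1.15 (SE 0.14, limma adjusted p = 1.63e-07). F10, factor X, changed by -0.32 and -0.32. F11 had signals of 6.98 to 8.12 in Fed-Fed-Fast livers against 8.42 to 9.11 in Fed-Fed-Fed livers, with no overlap.

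Serpind1 encodes heparin cofactor II, an inhibitor of thrombin. Lowest, median and highest signals were 9.97, 10.49 and 10.57 in Fed-Fed-Fast livers, against 10.83, 10.87 and 10.94 in Fed-Fed-Fed livers. They were 10.35, 10.54 and 10.68 in Fast-Fast-Fast livers, against 10.66, 10.88 and 11.03 in Fast-Fast-Fed livers. The groups were apart with 0 earlier fasts and met by a narrow margin with 2. On the log2 scale the change was -0.46 (SE 0.071, limma adjusted p = 1.05e-05) and -0.35 (SE 0.074, limma adjusted p = 0.000908).

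Serpinc1 encodes antithrombin, the main plasma inhibitor of thrombin and factor Xa. Its lowest, median and highest signals were 11.01, 11.18 and 11.23 in Fed-Fed-Fast livers, against 11.26, 11.37 and 11.44 in Fed-Fed-Fed livers. They were 11.18, 11.29 and 11.32 in Fast-Fast-Fast livers, against 11.32, 11.41 and 11.47 in Fast-Fast-Fed livers. The ranges did not overlap in either history, though with 2 earlier fasts they nearly touched. The log2 change was -0.20 (SE 0.048, limma adjusted p = 0.00245) with 0 earlier fasts and -0.13 (SE 0.050, limma adjusted p = 0.0973, not called) with 2.

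Serpinf2 encodes alpha-2-antiplasmin, which holds back plasmin and so slows the breakdown of clots. In order of lowest, median and highest, the signals were 10.03, 10.14 and 10.46 in Fed-Fed-Fast livers, against 10.23, 10.42 and 10.57 in Fed-Fed-Fed livers. They were 9.999, 10.10 and 10.28 in Fast-Fast-Fast livers, against 10.18, 10.46 and 10.54 in Fast-Fast-Fed livers. The groups overlapped in both histories. This amounted to a log2 change of -0.20 (SE 0.070, limma adjusted p = 0.0518, not called) with 0 earlier fasts and -0.33 (SE 0.073, limma adjusted p = 0.00137) with 2. With 0 earlier fasts it was called when variances followed an intensity trend (adjusted p = 0.025) or when array weights were used (adjusted p = 0.0254). It was also called with only genes above the median level tested (adjusted p = 0.0254) and with the replicate block (adjusted p = 0.0309). Over all alternatives its adjusted p ran from 0.0175 to 0.116.

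Coagulation and fibrinolysis genes were read beside these inhibitors. The lists hold proteases on which the inhibitors act and also other plasma proteins, such as fibrinogen chains and kininogens. Of 19 measured coagulation genes, 1 rose and 11 fell with 0 earlier fasts, and 2 rose and 8 fell with 2, with median log2 changes of -0.19 and -0.17. Over all genes, 6.25% rose and 6.23% fell with 0 earlier fasts, and 6.06% rose and 5.52% fell with 2. Over the 11090 genes above the median level, 1312 rose and 1328 fell with 0 earlier fasts, and 1293 rose and 1168 fell with 2. Pros1, protein S, a cofactor of the anticoagulant protein C, rose by 0.56 and 0.58. F2, prothrombin and the target of Serpinc1 and Serpind1, fell by 0.17 with 0 earlier fasts (limma adjusted p = 0.0252) and had a log2 change of -0.06 with 2 (adjusted p = 0.582). Of 7 fibrinolysis genes, 0 rose and 2 fell in each response, with medians of -0.17 and 0.07. Those 2 were Habp2, which activates factor VII and plasminogen activators (log2 changes of -0.53 and -0.37), and Hgfac, which activates hepatocyte growth factor (-0.38 and -0.44). Plg, plasminogen, had a log2 change of -0.17 (adjusted p = 0.0514) and -0.15 (adjusted p = 0.0921).

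Serping1 encodes the C1 inhibitor, which restrains the start of the complement cascade and of the contact system. It was not called: its lowest, median and highest signals were 10.83, 10.96 and 11.07 in Fed-Fed-Fast livers and 10.71, 10.94 and 11.06 in Fed-Fed-Fed livers. On the log2 scale the change was 0.02 (95% interval -0.10 to 0.13) with 0 earlier fasts and 0.03 (95% interval -0.08 to 0.15) with 2. The complement genes around it did fall. Of 15 measured, 0 rose and 12 fell with 0 earlier fasts and 0 rose and 7 fell with 2, with medians of -0.35 and -0.33. Over all genes, 6.23% and 5.52% fell. Over the 11090 genes above the median level, 1328 fell with 0 earlier fasts and 1168 with 2. C8a and C9, parts of the membrane attack complex, had log2 changes of -0.86 and -0.83 with 0 earlier fasts and -0.78 and -0.67 with 2. C1s1, a gene for the C1s protease that Serping1 inhibits, fell by 0.63 with 0 earlier fasts (limma adjusted p = 0.0045) and had a log2 change of -0.40 with 2 (adjusted p = 0.129). Mbl2, mannose-binding lectin, fell by 0.73 and 0.55. With only genes above the median level tested, 12 complement genes were called lower with 2 earlier fasts.

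Serpinf1, pigment epithelium-derived factor, was not called, with log2 changes of -0.04 and 0.09. Inhibitors outside the family were mixed: of 23 measured, 1 rose and 5 fell with 0 earlier fasts and 2 rose and 4 fell with 2, with medians of -0.04 and -0.03. Tfpi2, a Kunitz-type inhibitor, fell by 0.86 and 0.70, and Mug2, a murinoglobulin of the alpha-macroglobulin family, fell by 0.85 and 0.60. Itih3, a heavy chain of the inter-alpha-trypsin inhibitors, rose by 0.39 and 0.32. Of 8 serine proteases of leukocytes and mast cells, several of which clade A and clade B serpins inhibit, 0 were called in either response, and their median log2 changes were 0.0002 and -0.04.

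Serpinh1, the collagen chaperone of the endoplasmic reticulum, inhibits no protease and is made by collagen-secreting cells. Signals, as lowest, median and highest, were 2.94, 3.08 and 3.39 in Fed-Fed-Fast livers, against 3.68, 3.92 and 4.36 in Fed-Fed-Fed livers. They were 2.70, 3.30 and 3.76 in Fast-Fast-Fast livers, against 3.34, 4.02 and 4.53 in Fast-Fast-Fed livers. The groups were apart with 0 earlier fasts and overlapped with 2. The log2 change was -0.86 (SE 0.15, limma adjusted p = 6.34e-05), or 1.81-fold lower, and -0.76 (SE 0.15, limma adjusted p = 0.000604), or 1.69-fold lower.

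Of 6 markers of stellate cells and fibroblasts, 0 rose and 3 fell in each response. Col3a1, a collagen chain, changed by -0.92 and -1.09, Lrat by -0.55 and -0.73, and Reln by -0.31 and -0.29, while Col1a1, Dcn and Des were not called. The summed linear signal of the 6 was 626 to 884 in Fed-Fed-Fast livers and 614 to 877 in Fed-Fed-Fed livers. It was 781 to 1026 in Fast-Fast-Fast livers and 733 to 875 in Fast-Fast-Fed livers. Dcn made up most of this sum, with mean log2 signals of 9.21 in Fed-Fed-Fast livers and 9.10 in Fed-Fed-Fed livers, against 3.13 and 4.05 for Col3a1, so the sum hardly registers the falls of the other members. The part of these cells in the change of Serpinh1 was not tested.

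Clade B serpins guard cells from proteases released within them, such as granzyme B and cathepsins. Serpinb6b, a mouse gene related to human SERPINB6, was the only clade B gene called. Lowest, median and highest signals were 3.47, 3.89 and 4.44 in Fed-Fed-Fast livers, against 2.98, 3.25 and 3.67 in Fed-Fed-Fed livers. They were 3.00, 3.79 and 4.51 in Fast-Fast-Fast livers, against 2.90, 3.32 and 3.69 in Fast-Fast-Fed livers. All groups overlapped their counterparts. This amounted to a log2 change of 0.62 (SE 0.16, limma adjusted p = 0.00621), or 1.53-fold higher, and 0.53 (SE 0.16, limma adjusted p = 0.0313), or 1.44-fold higher. With 2 earlier fasts the call was lost with only the 2 groups compared in the fit (adjusted p = 0.0787) and without Fast-Fast-Fast replicate 6 or 7 or Fast-Fast-Fed replicate 3, 6 or 8 (adjusted p of up to 0.106). Its relatives Serpinb6a and Serpinb6c were not called, with log2 changes of -0.07 and -0.20 for Serpinb6a and 0.21 and 0.28 for Serpinb6c.

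Of the other 24 clade B genes, 20 had mean levels below that of the median gene. Serpinb9, an inhibitor of granzyme B, had a mean level of 4.23 and log2 changes of -0.14 and -0.15. Serpinb1a, an inhibitor of neutrophil elastase and cathepsin G, had the highest log2 change among genes not called, 0.30 in each response (adjusted p = 0.43 and 0.448). Of 6 Kupffer cell markers, 0 rose and 5 fell with 0 earlier fasts, and 0 rose and 2 fell with 2. Marco was not called, with log2 changes of 0.39 and 0.36. The summed linear signal of the 6 was 175 to 446 in Fed-Fed-Fast livers and 269 to 680 in Fed-Fed-Fed livers. It was 196 to 403 in Fast-Fast-Fast livers and 219 to 525 in Fast-Fast-Fed livers. The part of Kupffer cells in any clade B value was not tested.

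Over the whole family, group ranges did not overlap for 1 gene higher and 8 lower with 0 earlier fasts, and for 1 higher and 6 lower with 2. Over all genes, 2.18% were so separated upward and 2.1% downward with 0 earlier fasts, and 2.29% and 2.08% with 2. Among the 42 Serpin genes not called with 0 earlier fasts, log2 changes ran from -0.25 (Serpina11) to 0.30 (Serpinb1a). Among the 43 not called with 2, they ran from -0.41 (Serpina9) to 0.30 (Serpinb1a). Serpini1 and Serpini2, named neuroserpin and pancpin, had mean levels of 1.15 and 1.11, and their changes stayed between -0.09 and -0.01. Serpine3 had a mean level of 1.64 and was not called.

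The second question is whether 2 earlier fasts changed the family. No Serpin gene passed the threshold: in fed mice (Fast-Fast-Fed against Fed-Fed-Fed), in fasted mice (Fast-Fast-Fast against Fed-Fed-Fast), averaged over both states and in the interaction of history with the final fast, limma called 0 of 54 Serpin genes and 0% of all genes. At an unadjusted p under 0.05 there were 2, 1, 1 and 2 Serpin genes in these comparisons, and 1245, 996, 1185 and 1023 over all genes. The smallest p in fed mice was that of Serpinb9b, a clade B gene with a mean level of 1.40. It had signals of 1.27 to 1.79 in Fast-Fast-Fed livers and 1.03 to 1.73 in Fed-Fed-Fed livers, a log2 difference of 0.24 (SE 0.091, unadjusted p = 0.0126, limma adjusted p = 0.856). With the mean of its probe sets, the difference was 0.08. The next were Serpinb1c (0.28, adjusted p = 0.856) and Serpina3i (-0.26, adjusted p = 0.9).

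In fasted mice the smallest p belonged to Serpinc1, with a log2 difference of 0.11 (SE 0.050, unadjusted p = 0.0397, limma adjusted p = 1.00). Serpina6 followed with 0.32 (SE 0.16, 95% interval -0.01 to 0.65), which was 0.19 without Fed-Fed-Fast replicate 3. Serpine3 had -0.23 (SE 0.12). In the interaction, Serpine3 had -0.38 (SE 0.16, unadjusted p = 0.0252, limma adjusted p = 0.999), Serpina4-ps1 had 0.97 (SE 0.45, unadjusted p = 0.0366, limma adjusted p = 0.999) and Serpinb5 had -0.22 (SE 0.12). The 95% interval of the Serpina4-ps1 interaction ran from 0.06 to 1.89, the difference between its log2 changes of -2.68 and -3.65. Averaged over both states, the smallest p belonged to Serpinb9b (0.16, or 0.08 with the mean of its probe sets), Serpinc1 (0.07) and Serpina3n (-0.12).

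The intervals say how large a history effect could have been missed. For Serpina7 the 95% interval of the difference was -0.24 to 0.83 in fasted mice and -0.32 to 0.71 in fed mice. For Serpina10, it was -0.11 to 0.23 in fasted mice and -0.17 to 0.16 in fed mice. For Serpina3n, it was -0.32 to 0.05 in fasted mice and -0.28 to 0.08 in fed mice. Changes the size of the fasting response of Serpina7, Serpina6 or Serpina4-ps1 lay outside these genes' intervals in both states.

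**Figure D4:**
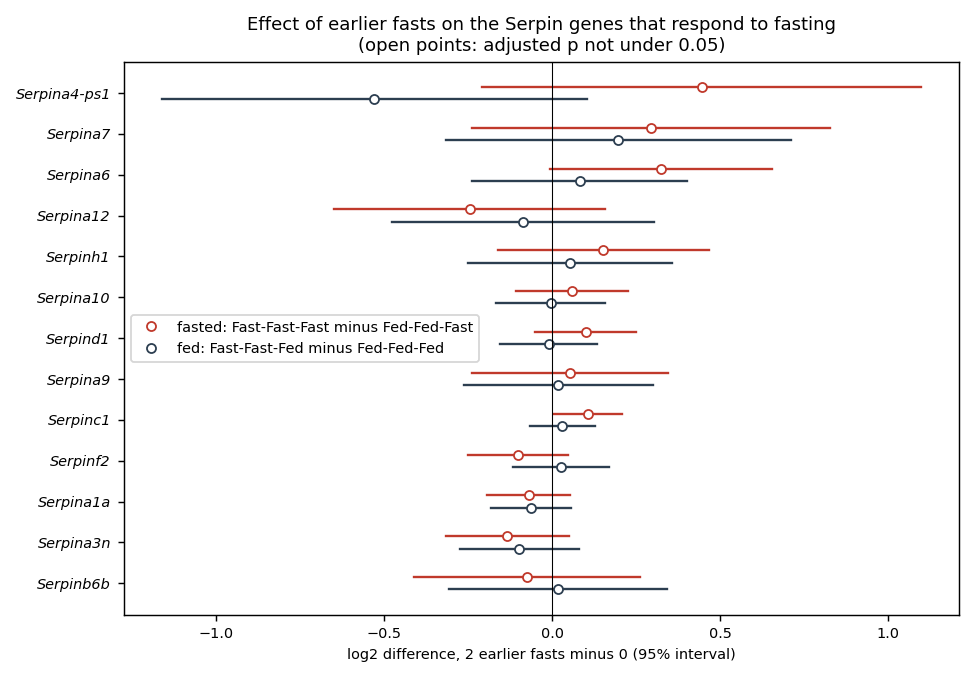
Log2 difference between mice with 2 and with 0 earlier fasts, with 95% intervals, for the 13 Serpin genes called in either response, in fasted mice and in fed mice. Points are open because no adjusted p was under 0.05. Serpina4-ps1 has the widest intervals, from -1.16 to 0.10 in fed mice and from -0.21 to 1.10 in fasted mice.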

How the data were processed

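The deposited values are log2 signals that the authors made with RMA, per the submitters' processing notes. RMA corrects background, normalizes quantiles and summarises the probes of a probe set. Its version was not given in the sources used here. Per the labels, RNA came from livers and 100 ng per sample was labelled for Affymetrix whole-transcript arrays. Detection calls and probe sequences were not used here, so weak signals were addressed by a filter among the alternatives. Precision rests on the count of arrays per group.

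Of 41345 probe sets, 23521 carry 1 symbol in the platform's annotation, 1814 carry several and 16010 carry none. Where a symbol had several probe sets (1082 genes), the brightest on average was kept, which left 22180 genes. A further 2 probe sets that name a Serpin gene among several symbols were left out.

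A single limma model (3.58.1, under R 4.3.3, with files read by the data.table package, 1.17.8) with empirical Bayes moderation covered the 4 groups and gave 6 comparisons. The threshold for a call was 0.05 on the 2-sided p-value, adjusted by Benjamini-Hochberg across all genes, and intervals are at 95%. No adjustment over the family alone is given. Summed marker signals are sums of linear values (2 to the power of the log2 value). Alternatives were an intensity trend or robust moderation of the variances, only the groups compared in the fit, the mean of a gene's probe sets, cyclic loess between arrays, only genes above the median level, array weights, the replicate number as a block and each array left out in turn. The code was tested on simulated data. The promoter list of RefSeq for GRCm38.p6 held 47 of the 54 genes, and Serpina4-ps1, Serpina6 and Serpina10 were among those it lacked. Promoters are the 250 bases before the first listed start of each gene in that list. They were aligned with Biopython 1.88, and plots used matplotlib 3.10.9, both in Python 3.11.15.

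The members, lists, comparisons and alternatives were chosen with earlier results of these data known. Genes named with a change are all Serpin genes called in either response, the 3 with the smallest p where none was called, members with a mean above 8, close copies of called members, and up to 3 called genes of each other list with the largest changes. The mates of named serpins (F10, F2, Plg, C1s1), the uncalled or less changed genes of the carrier and regulator lists, and Serpina5, Serpina11, Serpina16, Serpine3, Serpinf1, Serpinb9, Serpinb1a, Serpini1 and Serpini2 were named after their values were seen.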

Additional observations from a re-analysis of the deposited data

Results flagged for a closer look

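Among 68 sets of values (17 Serpin genes in 4 groups), 6 held a liver set apart from the rest of its group by a gap that is large against the range of the group. Chance alone does this in about 1 set in 20. In Fed-Fed-Fast livers, replicate 5 was the lowest for 2 genes, Serpina10 (8.50, with the next liver at 8.79) and Serpind1 (9.97, with the next at 10.32). In Fast-Fast-Fast livers, replicate 4 had the lowest Serpina12 (1.32, with the next at 2.89). In Fast-Fast-Fed livers, replicate 2 had the highest Serpina1c (12.45, with the next at 12.37) and the lowest Serpinf2 (10.18, with the next at 10.37). In Fed-Fed-Fed livers, replicate 2 had the lowest Serpina4-ps1 (7.77, with the next at 9.06). Leaving out any array in turn kept the log2 change of Serpina12 with 2 earlier fasts between -1.47 and -1.14, that of Serpina10 with 0 between -0.54 and -0.44, that of Serpind1 with 0 between -0.48 and -0.39, and that of Serpina4-ps1 with 0 between -3.87 and -3.55.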

How the results depend on the processing

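Each count of called Serpin genes stayed within 1.5 times its value under every alternative run. With any of the 31 arrays left out, 3 genes were called higher and 8 to 10 lower with 0 earlier fasts, and 2 to 3 higher and 8 to 9 lower with 2, while the history and interaction comparisons gave 0. The main model did not use the replicate numbers as pairs. Deviations of same-numbered livers correlated with a median r of 0.009 to 0.040, and r exceeded 0.1 in at most 1 pair of a comparison. Livers of different numbers were not compared in this way, so these values cannot show whether the numbers pair the animals. With the replicate block, 3 Serpin genes were called higher and 10 lower with 0 earlier fasts, and 3 higher and 8 lower with 2. The added gene was Serpinf2 (adjusted p = 0.0309). Calls near the threshold moved. Serpinf2 with 0 earlier fasts was also called without any 1 of Fed-Fed-Fast replicates 1 and 8, Fed-Fed-Fed replicates 3 and 7, Fast-Fast-Fast replicate 4 and Fast-Fast-Fed replicate 2. Serpina9 with 2 earlier fasts was called with only the groups compared (adjusted p = 0.0364), with array weights (0.0456) and without any 1 of Fed-Fed-Fed replicates 1, 7 and 8, Fast-Fast-Fast replicate 5 and Fast-Fast-Fed replicate 5, in a range of 0.0228 to 0.138. Serpinc1 with 2 earlier fasts was called with an intensity trend (0.0228) or with only genes above the median level (0.0404), in a range of 0.0228 to 0.201. The coagulation count higher with 0 earlier fasts was 2 with the replicate block and without Fed-Fed-Fast replicate 1. The count of inhibitors outside the family called higher lay between 1 and 2 with 0 earlier fasts and between 1 and 3 with 2, and that of regulators called lower with 0 earlier fasts was 1 without Fed-Fed-Fast replicate 5. The cause of these shifts was not tested. The changes recomputed were those of the called Serpin genes in both responses and of the 3 Serpin genes with the smallest p in each other comparison, and none of these turned its direction. Other named changes were not recomputed. Of the 31 Serpin genes not above the median level, Serpina9 alone was called in either response.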
